A study of Mus musculus with 4 samples.

Results

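Follistatin and 9 genes of the TGF-beta pathway were examined in CD4+CD8+ double-positive thymocytes, the most numerous T cell precursors of the thymus. The members were the rows of the deposited table whose symbol was Fst, Tgfb1, Tgfbr1, Tgfbr2, Smad2, Smad3, Smad4, Smad7, Ski or Skil, which gave 10 of 53715 genes. All 10 passed the filter on low counts. The list was chosen by KO against WT fold changes of these same libraries, among them the low Fst level in KO, so the differences between genotypes in the 10 genes are given as a description with no p-values, and whether the fit called a gene is part of that description. Fold changes and their standard errors (SE) come from a model fitted to all 16588 genes that passed the filter.

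Double-positive cells were sorted from the thymus of C57BL/6 mice of 6 to 8 weeks, with 2 libraries labelled WT and 2 labelled LCKCre/+ Srsf1fl/fl, here called KO. Srsf1 encodes a splicing factor of the SR protein family. The Cre recombinase that deletes the floxed gene is driven by a promoter of Lck, a gene that switches on early in thymocyte development. The label does not give the stage at which the deletion takes place. Whether the WT mice carried Cre or floxed alleles, and whether the 2 libraries of a group came from separate animals, is not given in the labels, so the spread between libraries may be technical.

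Transforming growth factor beta (TGF-beta) is a secreted cytokine that binds a pair of serine/threonine kinase receptors. The activated type I receptor phosphorylates Smad2 and Smad3, which join Smad4 and act on genes in the nucleus. Smad7, Ski and SnoN (encoded by Skil) restrain the pathway, and Smad7 and Skil are themselves well known early targets of it. Follistatin is a secreted protein that binds activins and some bone morphogenetic proteins (BMPs), relatives of TGF-beta that also signal through Smads. In the thymus TGF-beta is known for roles in regulatory T cells, natural killer T cells and CD8 T cell maturation.

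The regulatory sequence of the receptor pair and of the ligand is shown because both receptor genes were lower in the KO libraries while the ligand gene was not. Promoter windows from RefSeq (GRCm38.p6), from 250 bases before to 50 bases after an annotated start, matched 5 of the 10 members; Fst, Smad2, Smad4, Smad7 and Skil had no match. Windows are printed on the strand of the gene, 5′ to 3′. Capitals mark the GC box GGGCGG and the CCAAT box CCAAT on either strand, and no 2 of these matches overlap in the sequences printed.
Tgfbr1 (chr4:47352972-47353271, plus strand): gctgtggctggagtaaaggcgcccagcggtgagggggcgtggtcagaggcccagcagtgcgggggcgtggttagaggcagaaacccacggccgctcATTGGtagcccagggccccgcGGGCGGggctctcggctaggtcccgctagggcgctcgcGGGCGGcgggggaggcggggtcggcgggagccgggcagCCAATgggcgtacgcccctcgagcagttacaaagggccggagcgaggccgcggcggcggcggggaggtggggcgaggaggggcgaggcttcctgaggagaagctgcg
Tgfbr2 (chr9:116175314-116175613, minus strand): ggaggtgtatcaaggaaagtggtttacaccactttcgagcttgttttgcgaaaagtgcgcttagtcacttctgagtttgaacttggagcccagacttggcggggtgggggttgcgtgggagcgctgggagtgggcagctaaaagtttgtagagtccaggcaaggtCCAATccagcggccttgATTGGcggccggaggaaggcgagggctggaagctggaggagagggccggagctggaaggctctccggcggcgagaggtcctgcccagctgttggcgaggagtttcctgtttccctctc
Tgfb1 (chr7:25686752-25687051, plus strand): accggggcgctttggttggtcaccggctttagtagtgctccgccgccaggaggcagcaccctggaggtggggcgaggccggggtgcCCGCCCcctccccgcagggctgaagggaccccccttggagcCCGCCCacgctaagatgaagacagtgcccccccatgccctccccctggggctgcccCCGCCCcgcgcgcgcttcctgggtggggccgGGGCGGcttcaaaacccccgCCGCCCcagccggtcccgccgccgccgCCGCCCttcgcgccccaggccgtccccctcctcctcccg
The Tgfbr1 window held 2 GC boxes and 2 CCAAT boxes at 74.7% GC. Tgfbr2 held 0 GC boxes and 2 CCAAT boxes at 59% GC, whereas Tgfb1 held 6 GC boxes and 0 CCAAT boxes at 77% GC. Of 32851 RefSeq windows of 300 bases, 35.7% held a GC box and 37.4% a CCAAT box, and their median GC content was 52.7%. The short Smad-binding sequence CAGAC, searched on both strands, stood in 49.6% of all windows, with 1 match in Tgfbr2 and 0 in the printed windows of Tgfbr1 and Tgfb1. RefSeq lists another start for Tgfbr1 (chr4:47385966-47386265), whose window held 0 GC boxes, 1 CCAAT box and 1 CAGAC. These matches are a description of letters only.

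All coordinates are GRCm38, from GENCODE release M21, and span each protein-coding gene from end to end. Tgfb1 lies on chromosome 7 from 25687002 to 25705077 and Tgfbr1 on chromosome 4 from 47353222 to 47414931, both on the plus strand. Tgfbr2 (116084293 to 116175360) and Smad3 (63646767 to 63757994) lie on the minus strand of chromosome 9. Chromosome 18 holds Smad2 (76241580 to 76310963, plus), Smad4 (73639009 to 73703780, minus) and Smad7 (75367529 to 75395935, plus). Ski lies on chromosome 4 from 155154075 to 155222592 on the minus strand, and Skil on chromosome 3 from 31095058 to 31122577 on the plus strand. Apart from Fst, no member shares exon bases with another annotated gene.

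Total counts lay between 35862730 and 37033180 per library, so 1 count was worth 0.0270 to 0.0279 counts-per-million (CPM). For Srsf1 itself the KO level was 0.382 times the WT level, with 4821 and 4485 WT counts against 1839 and 1772 KO counts. Over all 16588 genes, 1100 were called higher and 1308 lower in KO by the edgeR quasi-likelihood test at an adjusted p under 0.05, which is 14.5% of genes in all, 6.63% higher and 7.89% lower. The median log2 fold change of all genes was 0.00. In these bulk libraries fewer cells with a transcript and less transcript per cell cannot be told apart.

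Follistatin showed the widest gap between genotypes among the 10 genes. Fst (ENSMUSG00000021765, chromosome 13, 114452290 to 114458951, minus strand, GRCm38) was counted 628 and 801 times in WT, and 85 and 102 times in KO. In CPM these were 17.5 and 21.9 against 2.30 and 2.80, so both KO libraries lay far below both WT libraries. The mean went from 19.7 ± 3.13 to 2.55 ± 0.359 CPM (SD, n = 2 libraries per group here and throughout), a log2 fold change of -2.95 (SE 0.27), or 0.129 of the WT level. Of the genes tested, 1.09% had a lower fold change, which is a description only, since Fst was chosen with its low KO level known. In GENCODE M21 the exons of Fst cover 4589 bases, against a length of 3374 bases in the deposited table. In M21 an annotated antisense gene, Gm47040, shares 2.51% of these exon bases, and it had 0 counts in every library.

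Fst is known as a gene of mesenchymal and epithelial cells, so markers of such cells were read in the same libraries. The 7 fibroblast and mesenchymal markers summed to 1.53 and 2.03 CPM for WT and 1.11 and 2.20 CPM for KO, and Col3a1, Lum and Dpt were at 0 in every library. That sum came mostly from Pdgfrb, was below the Fst level in each WT library and overlapped between genotypes. Col1a1, kept in another list, had 1.14 and 0.548 CPM for WT and 0.405 and 3.85 CPM for KO. Whether mesenchymal or epithelial cells gave part of the Fst reads was not tested. Of the 8 thymic epithelial markers, Foxn1, Krt5 and Krt14 were at 0 in every library. The epithelial sum of 45.0 and 55.2 CPM for WT and 46.4 and 35.9 CPM for KO came mostly from Cldn4 and Epcam. Of the 4 tested, 0 were called by edgeR, DESeq2 or limma-voom, with 0 under an unadjusted edgeR p of 0.05. All 4 had negative log2 fold changes, with a median of -0.23. Among them Krt8, at low counts, was counted 26 and 19 times in WT, and 4 and 7 times in KO (log2 fold change -2.02, SE 1.42).

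The genes whose pattern over the 4 libraries lay nearest to that of Fst, by Euclidean distance of log2 CPM centred on each gene's mean, were Rbm24 (distance 0.42), Fosl2 (0.43), Nr4a3 (0.46), Rasgef1b (0.48) and Gfpt2 (0.49). Candidates had at least 5 CPM on average and an established gene symbol, so genes with provisional or clone-based names were left out. Rbm24 had 51.5 and 55.8 CPM for WT and 8.94 and 8.66 CPM for KO. With 4 libraries the measure mainly reflects the gap between the groups.

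**Figure D1:**
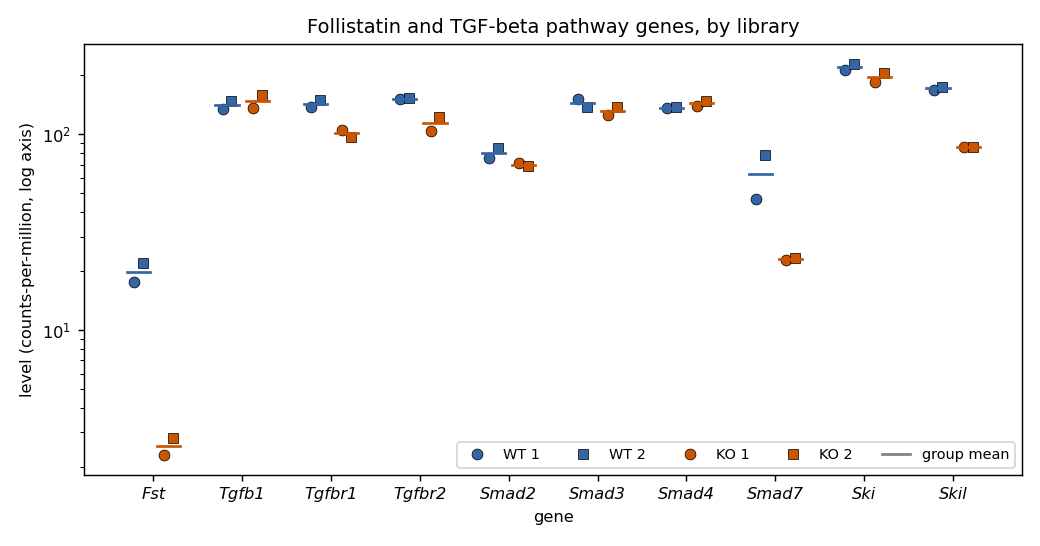
Level of each of the 10 genes in counts-per-million on a log axis (y) by gene (x); each point is 1 library and each short line the mean of a group. Fst sits near 20 CPM for WT and under 3 CPM for KO, and Skil and Smad7 show the next widest gaps.

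The ligand gene Tgfb1, which encodes TGF-beta 1, had overlapping levels in the 2 genotypes. It had 135 and 147 CPM in the WT libraries and 136 and 160 CPM in the KO libraries. The means were 141 ± 9.01 and 148 ± 16.5 CPM, a log2 fold change of 0.07 (SE 0.10). The highest value was in KO replicate 2 and the lowest in WT replicate 1.

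Both receptor genes were lower in KO. Tgfbr1 encodes the type I receptor kinase and had 138 and 149 CPM for WT against 106 and 97.3 CPM for KO. Its mean went from 143 ± 8.27 to 101 ± 5.77 CPM, 0.707 of the WT level (log2 fold change -0.50, SE 0.09). Tgfbr2 encodes the type II receptor, which binds the ligand first, and had 151 and 154 CPM for WT against 105 and 123 CPM for KO. Its mean went from 152 ± 1.61 to 114 ± 13.3 CPM, 0.748 of the WT level (log2 fold change -0.42, SE 0.09). For each receptor gene every KO library lay below every WT library. The size for Tgfbr2 depended on the KO library used, with a log2 fold change of -0.29 when KO replicate 1 was left out and -0.55 when KO replicate 2 was.

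The Smads that carry the signal differed little between genotypes. Smad2 had 75.6 and 85.5 CPM for WT and 71.4 and 68.8 CPM for KO (log2 fold change -0.20, SE 0.10), with both KO libraries just below the lower WT library. Smad3 had 152 and 137 CPM for WT and 126 and 139 CPM for KO (-0.13, SE 0.09), and the groups overlapped. Smad4, the partner shared by the TGF-beta and BMP branches, had 136 and 137 CPM for WT and 140 and 149 CPM for KO (0.08, SE 0.08), with both KO libraries slightly above both WT libraries.

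Among the restraining factors, Smad7 and Skil were much lower in KO and Ski was not. Smad7, which blocks the type I receptor and recruits ubiquitin ligases to it, was counted 1684 and 2864 times in WT, and 848 and 854 times in KO. These were 47.0 and 78.4 CPM against 22.9 and 23.5 CPM, so the WT libraries differed widely from each other while the KO libraries were close. The mean went from 62.7 ± 22.3 to 23.2 ± 0.403 CPM, 0.370 of the WT level (log2 fold change -1.43, SE 0.20). Against WT replicate 1 alone the log2 fold change was -1.01, and against WT replicate 2 alone it was -1.75, so its size rests on which WT library is used.

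Skil encodes SnoN, a nuclear corepressor that binds Smad complexes. It had 169 and 175 CPM for WT against 86.2 and 86.0 CPM for KO, so replicates of each genotype lay close together. The mean went from 172 ± 4.36 to 86.1 ± 0.184 CPM, 0.502 of the WT level (log2 fold change -0.99, SE 0.08). Its relative Ski, the cellular form of a retroviral oncogene and also a Smad corepressor, had 214 and 230 CPM for WT against 184 and 207 CPM for KO. The KO mean was 0.880 of the WT mean (log2 fold change -0.18, SE 0.08), and the gap between KO replicate 2 and WT replicate 1 was small.

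In number, 5 of the 10 genes were called lower in KO (Fst, Tgfbr1, Tgfbr2, Smad7 and Skil), 0 were called higher, and the median log2 fold change was -0.31. The background was 7.89% of all tested genes called lower. Both KO libraries lay below both WT libraries for 7 of the 10, where 28.1% of all tested genes did so, and above them for 1, where 27.8% did. Groups without overlap, in either direction, made up 55.9% of all tested genes. Since these fold changes were known when the list was made, those calls are no test of the members and nothing is read from the counts. Smad7 was not called once KO replicate 1 or KO replicate 2 was left out, at log2 fold changes of -1.40 and -1.45. In those fits the spread between replicates came from the WT libraries, which differed widely for Smad7, and was moderated over all genes. Here and below, a fit without 1 library takes its spread from the other group and assumes that the lone library varies likewise.

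**Figure D2:**
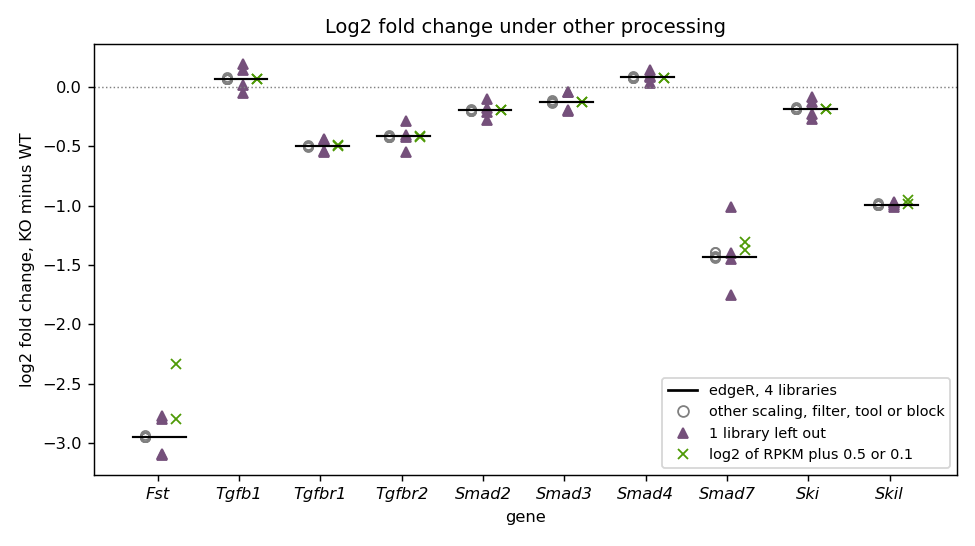
Log2 fold change of KO against WT (y) for the 10 genes (x); the line is the edgeR fit of 4 libraries, circles are other scalings, filters, tools or the block, triangles leave out 1 library and crosses use RPKM. Smad7 spans -1.75 to -1.01 as single WT libraries are left out, and Fst stays between -3.10 and -2.33.

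Levels between genes were compared per gene length, in RPKM, the CPM value divided by the gene length in kilobases. In WT the order was Ski (39.9 ± 2.02 RPKM), Smad4 (36.8 ± 0.225), Tgfb1 (28.0 ± 1.79), Smad3 (26.1 ± 1.85), Smad2 (22.7 ± 1.98), Tgfbr1 (21.9 ± 1.27), Tgfbr2 (18.6 ± 0.197), Skil (17.7 ± 0.449), Smad7 (13.9 ± 4.92) and Fst (5.85 ± 0.927). The library ranges of Tgfb1 and Smad3 overlapped, as did those of Smad2 and Tgfbr1, so these neighbours did not differ beyond their spread. Smad4 stood above Ski in KO, at 38.9 ± 1.60 against 35.1 ± 2.87 RPKM, and the order of the other 8 genes was the same. The KO ranges of Smad4 (37.8 to 40.1 RPKM) and Ski (33.1 to 37.2 RPKM) lay close, and neither gene was called between genotypes. Levels between genes rest on the gene lengths in the deposited table, and that of Fst differed from its length in M21. Tgfbr1 (15.5 ± 0.884 RPKM) and Tgfbr2 (13.9 ± 1.63) overlapped in KO.

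**Figure D3:**
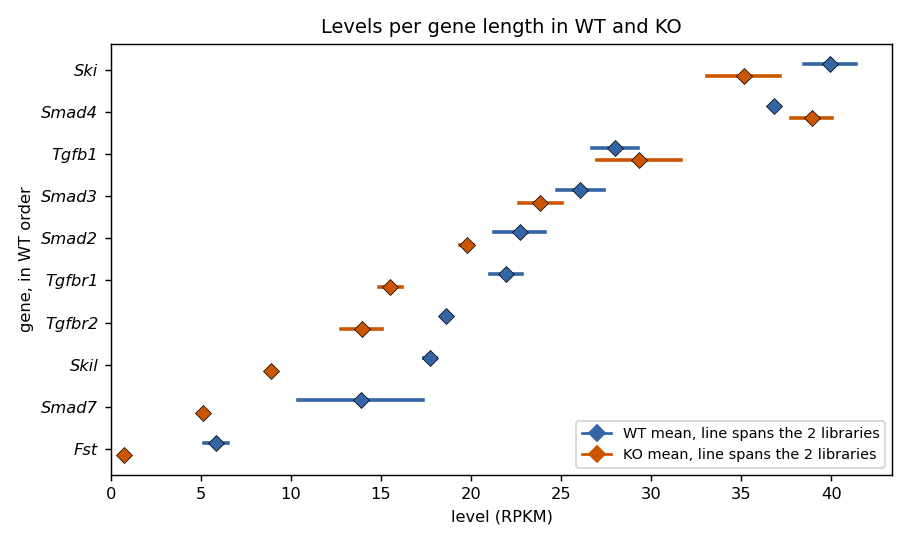
Level per gene length in RPKM (x) of the 10 genes (y, in the WT order); diamonds are group means and lines span the 2 libraries of a group. Levels in WT run from 39.9 RPKM for Ski to 5.85 for Fst, and the widest shifts to the left in KO are those of Skil (17.7 to 8.88 RPKM) and Smad7 (13.9 to 5.13 RPKM).

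Ratios within a library show how restraining and signalling members stood to each other. Smad7 relative to the sum of Smad2 and Smad3, in RPKM, was 0.213 and 0.355 for WT against 0.118 and 0.117 for KO. Skil relative to Ski was 0.452 and 0.436 in WT and 0.269 and 0.239 in KO, without overlap. Tgfbr2 relative to Tgfbr1 was 0.878 and 0.822 in WT and 0.791 and 1.01 in KO, so the proportion of the receptors overlapped between genotypes. The ratio of ligand to type II receptor, Tgfb1 over Tgfbr2, was 1.45 and 1.56 in WT and 2.12 and 2.10 in KO.

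Other genes of the pathway were read from 8 lists of 117 genes, of which 77 passed the filter. Of these 10 fell and 2 rose in KO, 65 were not called, and 15.6% were called in all against 14.5% of all tested genes. By direction, 13% fell against 7.89% of all tested genes and 2.6% rose against 6.63%. The lists were written with earlier results of these data known, so these shares are a description and no test of the pathway. Their median log2 fold change was -0.08. The adjusted p-values below are those of the edgeR quasi-likelihood test over all tested genes. They belong to single genes and do not account for how the lists were chosen.

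Intracellular regulators of Smad signalling held 4 of the 10 decreases, with a median log2 fold change of -0.23 over 20 tested genes. Tgif1, a homeodomain corepressor of Smad2 and Smad3, had 101 and 119 CPM for WT and 57.2 and 65.6 CPM for KO (log2 fold change -0.84, SE 0.11, adjusted p = 0.000363). Pmepa1, a TGF-beta target that sequesters receptor-activated Smads, had 46.9 and 52.2 CPM for WT and 24.5 and 31.4 CPM for KO (-0.82, SE 0.15, adjusted p = 0.00343). For both genes every KO library lay below every WT library. Smurf1, a ubiquitin ligase that acts with Smad7, had 101 and 104 CPM for WT and 72.1 and 77.9 CPM for KO (-0.45, SE 0.09, adjusted p = 0.00655). Ppm1a, a phosphatase of Smad2 and Smad3, went from 171 ± 7.81 to 131 ± 14.7 CPM (-0.38, SE 0.09, adjusted p = 0.0138), and was not called once WT replicate 1 was left out (0.0577).

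The member of that list that rose was Usp4, a deubiquitinase of the type I receptor, named after its values were seen. It moved from 180 ± 1.98 to 219 ± 12.4 CPM for KO (log2 fold change 0.29, SE 0.08, adjusted p = 0.0303). The Usp4 call ended when WT replicate 1 was left out (adjusted p = 0.119). The same held for WT replicate 2 (0.0736) and for KO replicate 2 (0.0952). The 2 most abundant genes of the list, the acetyltransferases and Smad coactivators Ep300 and Crebbp, did not pass the test. Ep300 had 402 ± 5.73 CPM for WT and 339 ± 37.1 CPM for KO (-0.24, SE 0.08, adjusted p = 0.0776). It was called by DESeq2 (adjusted p = 0.0388), by limma-voom (0.0354), with the filter of 1 CPM (0.0418) and with no filter (0.0255). Without KO replicate 2 the Ep300 log2 fold change was -0.36 (adjusted p = 0.00112), and without KO replicate 1 it was -0.12 (0.431). Crebbp had 365 ± 9.61 and 338 ± 10.1 CPM (-0.11, SE 0.07, adjusted p = 0.372).

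In the branch of the TGF-beta-activated kinase, which signals without Smads, 3 of 8 genes fell and 0 rose. The median log2 fold change of the 8 was -0.03, and 7.89% of all tested genes were called lower and 6.63% higher. Tab3, an adaptor of that kinase, went from 53.4 ± 2.89 in WT to 37.2 ± 1.75 CPM for KO (log2 fold change -0.52, SE 0.12, adjusted p = 0.0128). Map2k3 and Map2k4 encode kinases that activate p38 and JNK. Map2k3 went from 94.3 ± 4.76 to 71.4 ± 1.25 CPM (-0.40, SE 0.09, adjusted p = 0.0123), and Map2k4 from 68.5 ± 1.69 to 51.2 ± 2.37 CPM (-0.42, SE 0.10, adjusted p = 0.0161). Leaving out WT replicate 2 ended the calls of Tab3 (adjusted p = 0.0659) and Map2k3 (0.0807), and leaving out WT replicate 1 ended that of Map2k4 (0.0877). Tab2 (0.13, SE 0.08, adjusted p = 0.316) and the p38 kinase gene Mapk14 (-0.01, SE 0.08, adjusted p = 0.98) were the most abundant and were not called.

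Ligands other than Tgfb1 were scarce, with 25 of 32 under 1 CPM in every library and 13 tested. Tgfb3, which encodes TGF-beta 3, had 6.16 and 7.20 CPM for WT and 1.13 and 2.83 CPM for KO (log2 fold change -1.75, SE 0.45, adjusted p = 0.0215). This was the 1 ligand called, and leaving out KO replicate 1 ended that call (adjusted p = 0.0791). Tgfb3 lies across another gene, Ttll5, and shares 7.6% and 4.82% of its exon bases with a pair of unnamed genes, so reads there cannot be assigned without a stated strand setting. The most abundant ligand genes after Tgfb1, Bmp7 (19.9 ± 3.24 and 22.3 ± 1.63 CPM) and Gdf11 (16.9 ± 0.743 and 16.9 ± 5.01 CPM), were not called. Their log2 fold changes were 0.17 (SE 0.19, adjusted p = 0.653) and 0.01 (SE 0.23, adjusted p = 0.992).

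Of 12 genes for extracellular antagonists and follistatin-like proteins, 9 were under 1 CPM in every library and 3 were tested. Nog encodes noggin, a secreted antagonist of BMPs. It had 4.77 and 3.12 CPM for WT and 0.648 and 0.522 CPM for KO, with no overlap (log2 fold change -2.75, SE 0.55, adjusted p = 0.00548). Fstl3, a relative of Fst, had 1.15 ± 0.0342 CPM for WT and 2.07 ± 2.11 CPM for KO and was not called (0.85, SE 0.77, adjusted p = 0.556). Fstl3 shares 47.3% of its exon bases with Prss57, so its reads are uncertain.

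Genes for the latency and activation of TGF-beta gave 1 increase and 1 decrease among 7 tested. Furin, a protease that cuts the TGF-beta precursor, had 106 and 106 CPM for WT and 70.2 and 88.7 CPM for KO (log2 fold change -0.42, SE 0.11, adjusted p = 0.026). Leaving out KO replicate 1 ended the Furin call (-0.24, adjusted p = 0.147), and without KO replicate 2 the log2 fold change was -0.60. Nrros, a protein that tethers latent TGF-beta 1 at the surface of myeloid cells, had 129 and 127 CPM for WT and 153 and 152 CPM for KO (0.25, SE 0.08, adjusted p = 0.0498). The Nrros call lay at the threshold and ended when any 1 library was left out (adjusted p = 0.0635 to 0.192), with the RLE factors (0.0518) and with the replicate block (0.072).

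Of 11 other receptor and co-receptor genes tested and 3 other Smads, 0 were called by edgeR, DESeq2 or limma-voom. At an unadjusted edgeR p under 0.05, 1 receptor (Eng) and 1 Smad (Smad5) passed. Tgfbr3, the co-receptor betaglycan, had 42.4 ± 10.6 CPM for WT and 31.6 ± 7.25 CPM for KO (log2 fold change -0.42, SE 0.20, adjusted p = 0.186). Acvr1b, a type I activin receptor, had 41.7 ± 3.28 and 39.1 ± 3.70 CPM (-0.09, SE 0.14, adjusted p = 0.756). The Tgfbr3 value depended on single libraries. It was called without WT replicate 2 (-0.65, adjusted p = 0.00665), without KO replicate 2 (-0.68, 0.0105) and with no filter (0.0362). Without WT replicate 1 it was -0.13 (adjusted p = 0.799) and without KO replicate 1 it was -0.19 (0.632). Smad5, of the BMP branch, had 78.5 ± 6.76 and 90.7 ± 1.42 CPM (0.21, SE 0.10, adjusted p = 0.177), and Smad1 had 19.6 ± 5.33 and 18.7 ± 2.04 CPM (-0.07, SE 0.22, adjusted p = 0.903).

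Genes known to respond to TGF-beta in other cells, a list that left out the 10 members and Pmepa1, gave 0 calls among 12 tested and a median log2 fold change of -0.10. At an unadjusted edgeR p under 0.05, 1 of them (Cdkn1a) passed, DESeq2 called 0 and limma-voom called 1 (Junb). Junb, an AP-1 subunit, had 1406 and 1296 CPM for WT and 904 and 1287 CPM for KO (-0.30, SE 0.19, adjusted p = 0.408). KO replicate 1 stood apart. Without it the Junb log2 fold change was -0.05 (adjusted p = 0.756), and without KO replicate 2 it was -0.58 (4.26e-09). The latter p-value rests on the spread of the WT libraries and holds no measure of the spread in KO. Junb shares 7.52% of its exon bases with Prdx2. Klf10, a zinc finger factor induced early by TGF-beta, had 213 ± 13.6 and 214 ± 11.4 CPM (0.01, SE 0.08, adjusted p = 0.954). Tgfbi, Foxp3 and Col1a1 of this list had few counts, with SE of 1.59, 1.07 and 0.90. The lack of a call therefore says little for those genes.

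**Figure D4:**
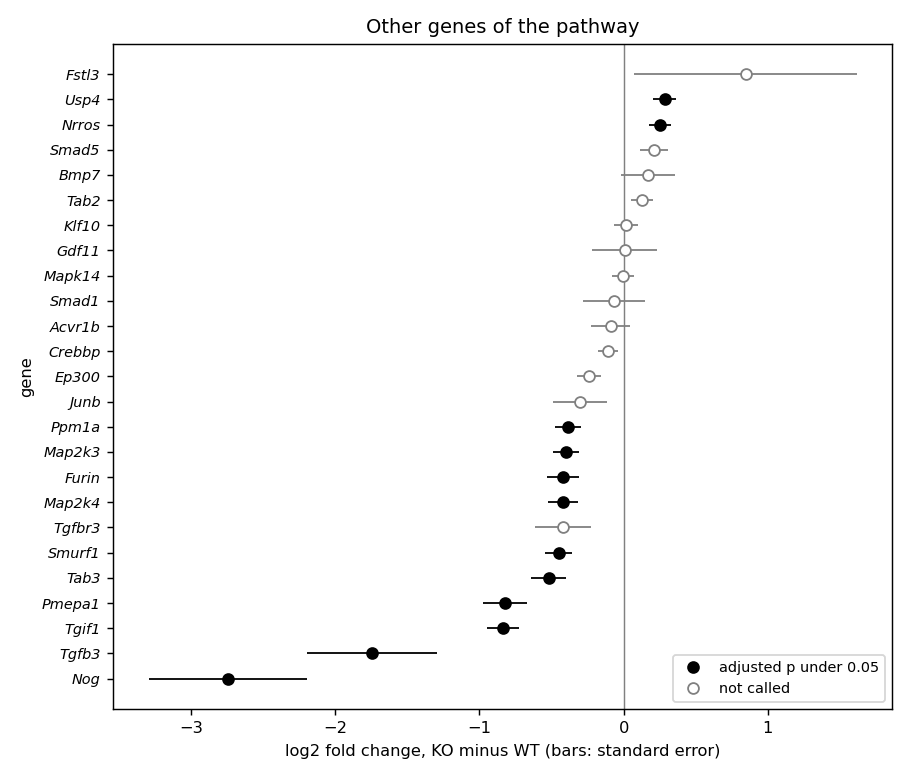
Log2 fold change of KO against WT (x) with its standard error for named pathway genes outside the 10 members (y). Eng, Cdkn1a, Amh, Gdf7, Tgfbi, Foxp3 and Col1a1 are not drawn. Filled points were called and open points were not. Nog (-2.75) and Tgfb3 (-1.75) lie farthest left, Usp4 (0.29) and Nrros (0.25) are the filled points to the right of 0.

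The labelled cell type was checked against its markers. All 11 double-positive markers were tested and above 1 CPM, and their sum was 8950 and 8579 CPM for WT and 12404 and 12001 CPM for KO, with 7 called higher and 0 lower. Macrophage and dendritic cell markers summed to 26.7 and 35.6 CPM for WT and 20.0 and 16.5 CPM for KO, mostly from Cd74 and H2-Aa. These 2 of the 7 tested genes were called lower. By sign, 4 of the 7 had negative log2 fold changes and 3 had positive ones. The 5 B cell markers summed to 12.2 and 10.1 CPM for WT and 18.8 and 21.0 CPM for KO, mostly from Cd79b, which rose. Endothelial markers summed to 117 to 137 CPM, nearly all of it Pecam1, and erythroid markers to 0.540 to 5.26 CPM. The part of these shifts in the values of the 10 genes was not tested.

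**Figure D5:**
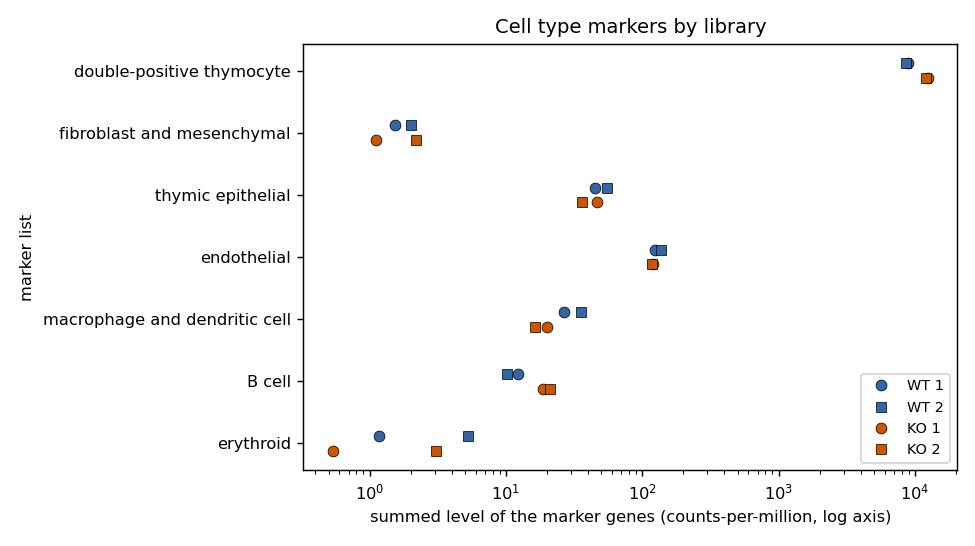
Summed level of each marker list in counts-per-million on a log axis (x) for the 4 libraries, by cell type (y). Double-positive markers lie between 8579 and 12404 CPM and fibroblast markers between 1.11 and 2.20 CPM.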

How the data were processed

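RNA sequencing of 2 WT and 2 KO libraries of sorted thymocytes was used, grouped by the titles. The authors deposited raw gene counts per library and a table of RPKM values with gene lengths. Per the submitters' processing notes the tools were FastQC 0.11.5, cutadapt 1.17, STAR 2.6.0a, HTSeq 0.6.1 and DESeq2 1.24.0, with build GRCm38 (mm10). The sources used here give neither strand setting nor annotation release, so overlapping genes may share reads. Each deposited RPKM value equals count over gene length and total counts, scaled, within a relative tolerance of 1e-06.

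Counts of 53715 genes were fitted with the edgeR 4.0.16 quasi-likelihood test (limma 3.58.1, R 4.3.3; filterByExpr, TMM factors, robust fit, genotype only). Benjamini-Hochberg adjustment of p-values covered every gene tested, and SE came from the fold change and its F statistic. CPM values are counts over total counts. Alternatives were other scaling factors, 2 other filters, limma-voom, DESeq2 1.42.0, the replicate number as a block, each library left out, and limma on log2 of RPKM plus 0.5 or 0.1, over the same genes. Where 1 library was left out, the spread between replicates came from the other group, moderated over all genes, and the lone library was assumed to vary likewise. Fits were tested on simulated data. Log2 CPM for the likeness to Fst used a prior count of 2.

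The 10 members and the lists were chosen with earlier results of these data known. Named genes were the members, called genes of each list (up to 4 by adjusted p), its 2 most abundant tested genes, and the 5 genes nearest to Fst. Usp4, Eng, Cdkn1a, Amh, Gdf7, Tgfbi and Foxp3 were added after values were seen. A list of single-positive thymocyte markers is not reported here. Coordinates and exon overlaps are from GENCODE release M21, with 53620 identifiers matched without version and 51464 with it, so some gene models may differ from those counted. Replicate pairs had a chi-square over degrees of freedom of 14.2 (WT) and 16.0 (KO), so none was a repeated library, against 48.0 to 58.4 between groups. Figures used matplotlib 3.10.9 in Python 3.11.15.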

Additional observations from a re-analysis of the deposited data

How the results depend on the processing

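Log2 fold changes of the 10 genes kept their sign under all 14 alternatives, except Tgfb1, which was -0.05 without KO replicate 2. Fst ranged from -3.10 (without KO replicate 2) to -2.33 (log2 of RPKM plus 0.5, where the added 0.5 is close to the KO level), Smad7 from -1.75 to -1.01 and Skil from -1.01 to -0.96. The edgeR call of Smad7 was not lost by leaving out a WT library, but was lost without KO replicate 1 (-1.40) or KO replicate 2 (-1.45), where the WT libraries, far apart for Smad7, gave the spread. Tgfbr2 was not called on the RPKM scale. Ski was called only without KO replicate 2 (-0.27). Under the alternatives 4 or 5 members were called lower.

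On log2 of RPKM plus 0.5, 407 genes were called higher and 555 lower, and with 0.1 added 403 and 557; of the other pathway genes 0 were higher and 2 lower in both, and 10 of the 12 named calls were lost. The cause was not tested. Other pathway genes called higher numbered 1 with RLE factors and 0 to 2 when 1 library was left out. Those called lower numbered 9 to 14 under the count-based alternatives. With the replicate block, 1304 genes were called higher and 1505 lower, and of the named pathway genes Junb (adjusted p = 0.000399) was gained and Nrros lost. Deviations of same-numbered libraries from their group means correlated at -0.04 across genes, and the number is all that the pairs share. No scaling moved the median of all genes by more than 0.1. A gene at 1 CPM rests on about 36 counts per library.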
